A study of Mus musculus with 4 samples.

Results

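Il33, Tslp, Il1rl1, Il7r, Il5, Il13, Il4 and Areg were followed through the cells of mouse collecting lymphatics, which carry lymph onward by contracting, and of the tissue that surrounds them. These 8 genes, of 32285 in the count matrix, were chosen by symbol as alarmins, alarmin receptors and type 2 cytokines, and all 8 were found. Donors were C57BL/6J mice, 4 of each sex, between 12 and 14 weeks of age, and the labels name no other genotype and no treatment. Within a mouse, vessels from 4 body regions (popliteal, mesenteric, inguinal axillary and superficial cervical) were put together, and the study's title asks how the channel TRPV4 acts on vessel contraction. Cells carry a barcode suffix from 1 to 8 that no label ties to a mouse or to a sex, so the matrix was read as 1 pooled sample. Suffixes are given as unlabelled samples, by their lowest, median and highest value, and no test was made.

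Interleukin-33 is stored in the nucleus of barrier and stromal cells and is released when they are damaged. It binds a receptor chain encoded by Il1rl1 (ST2) together with the shared chain Il1rap. Thymic stromal lymphopoietin (Tslp) binds Crlf2 together with the interleukin-7 receptor chain Il7r. In barrier tissues both alarmins are known to drive group 2 innate lymphoid cells, mast cells and some T cells to make Il5, Il13 and Il4, the type 2 cytokines, and Areg, a ligand of the epidermal growth factor receptor. Il5 acts on eosinophils, Il13 and Il4 share the receptor chain Il4ra, and amphiregulin (Areg) is known for its part in tissue repair.

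Il5, Il13 and Il4 lie close together in the genome, and their starts are shown because these 3 genes were read out in overlapping cells. On chromosome 11 of GRCm38 (GENCODE M21), Il4 spans 53602982 to 53618669 and Il13 spans 53631324 to 53634702, both on the minus strand, with 12.7 kb between them. Il5 follows at 53720794 to 53725106 on the plus strand, 86.1 kb beyond Il13, and the DNA repair gene Rad50 lies in that gap. The 250 bases before each start are printed below 5′ to 3′ along the gene's own strand, from RefSeq on GRCm38.p6, at chr11:53720544-53720793 (plus), chr11:53634703-53634952 (minus) and chr11:53618666-53618915 (minus). Capitals mark GATAA on either strand (TTATC on the other), a longer form of the GATA core read by GATA factors. GATA followed by another base was not searched for and is not marked.
Il5: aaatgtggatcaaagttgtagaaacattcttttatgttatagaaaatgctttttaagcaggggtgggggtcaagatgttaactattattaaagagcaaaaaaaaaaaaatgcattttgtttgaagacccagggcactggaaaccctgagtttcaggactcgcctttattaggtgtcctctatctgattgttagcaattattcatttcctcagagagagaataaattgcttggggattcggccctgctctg
Il13: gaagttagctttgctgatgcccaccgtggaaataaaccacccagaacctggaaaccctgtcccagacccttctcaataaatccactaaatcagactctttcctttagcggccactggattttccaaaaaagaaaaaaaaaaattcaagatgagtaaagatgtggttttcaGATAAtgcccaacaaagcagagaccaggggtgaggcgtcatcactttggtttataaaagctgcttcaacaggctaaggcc
Il4: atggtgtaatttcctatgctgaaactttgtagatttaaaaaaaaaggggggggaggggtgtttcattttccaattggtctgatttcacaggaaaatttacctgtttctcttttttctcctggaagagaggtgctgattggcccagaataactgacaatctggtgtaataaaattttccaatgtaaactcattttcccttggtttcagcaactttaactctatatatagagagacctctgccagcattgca
Only the Il13 window holds a GATAA match, 1 in number, and 22.6% of 32851 RefSeq windows of this length hold at least 1. A match or its lack in these windows is a description of letters only.

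The other 5 genes lie apart from this cluster. Il33 spans 29925114 to 29960718 on the plus strand of chromosome 19, Il1rl1 spans 40429570 to 40465415 (plus) on chromosome 1, and Areg spans 91139599 to 91148432 (plus) on chromosome 5. Il7r spans 9505788 to 9530176 on the minus strand of chromosome 15 and Tslp spans 32815383 to 32819797 on the plus strand of chromosome 18. All 8 are annotated as protein coding. Tslp and Il5 are each overlapped by a non-coding gene on the opposite strand, and the sources used here do not give whether counting used the strand. The one overlapping Il5, Gm12214, had 4 UMIs in innate lymphoid-like cells.

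Cells were grouped by markers that exclude the 8 genes. After filtering, 23158 cells fell into 56 clusters, of which 45 were named into 18 classes, while 1805 cells stayed unnamed. The 584 lymphatic endothelial-like cells formed 6 clusters, and Prox1, the lymphatic master factor, was found in 94.2% of these cells. Endothelial clusters were called lymphatic by their Prox1 share, so this high value follows from the naming rule and does not test it. Of the other lymphatic markers, Mmrn1 was found in 85.8% and Flt4 in 82.2% of the cells. Lyve1 was found in 17.1% and Ccl21a in 14.0%. All 8 markers of the blood endothelial list were also found in at least 10% of these cells, with a summed level of 6503 CPM against 4161 CPM for the lymphatic list. Of the blood list, Cldn5 was at 1694 CPM and Egfl7 at 1321 CPM, but Flt1 at 45.2 CPM in 18.0% of cells. The lists hold different genes, so their sums do not tell which identity is the stronger. The 362 innate lymphoid-like cells carried Rora in 99.7% and Il2ra in 91.7% of cells, but Icos in 42.8% and Hlf in 22.9%. Rora was also found in 87.9% of fibroblast-like cells. Of the T list, Cd3e was found in 1.93%, Cd3g in 22.7% and Cd4 and Cd8a in none of the innate lymphoid-like cells. The beta chain constant gene Trbc2 was found in 74.0% of them. The 255 mast-like cells carried Cma1 in 99.2% of cells and were shallow, with a median of 1229 UMIs per cell. Their fibroblast marker list summed to 4713 CPM, with Dcn in 40.4% of cells, and the part of such RNA in their values was not tested. The other classes of interest held 8627 fibroblast-like, 5855 macrophage-like, 1046 mesothelial-like and 291 T-like cells. Barcode depth ran from 23828933 to 32467001 gene UMIs per suffix. Levels are UMIs of a gene per 1000000 UMIs of a group (CPM) with exact Poisson 95% intervals that cover counting error only, and they are compared between cells for the same gene.

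**Figure D1:**
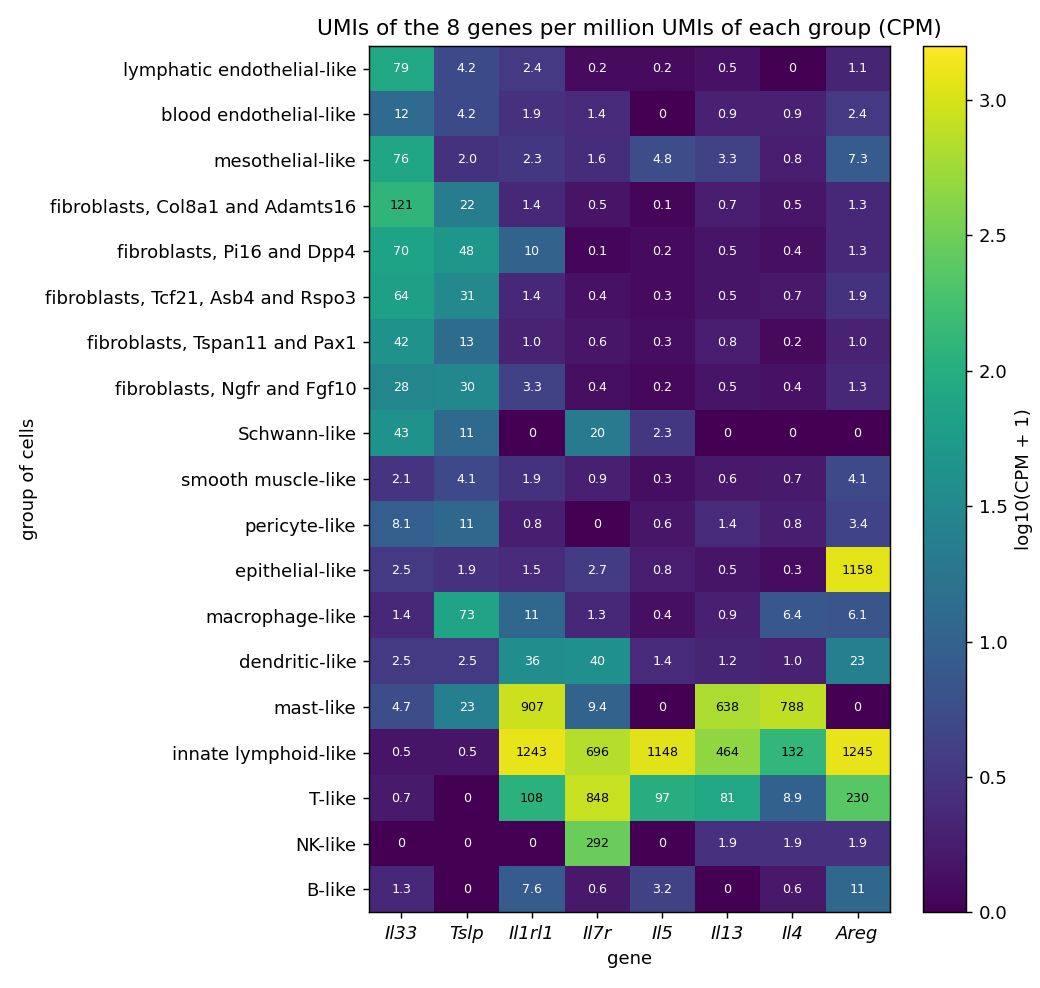
Levels of the 8 genes (columns) in 19 groups of cells (rows), printed as CPM and coloured by log10(CPM + 1). Il33 and Tslp are highest in stromal rows and, for Tslp, in macrophage-like cells, whereas Il1rl1, Il5, Il13, Il4 and Il7r are highest in mast-like, innate lymphoid-like and T-like rows.

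Sources of the alarmins came first. Il33 was carried by 3 kinds of stromal cells at similar levels, namely lymphatic endothelium at 79.3 CPM (95% interval 73.5 to 85.4), mesothelium at 76.1 CPM (71.9 to 80.4) and fibroblasts at 67.7 CPM (66.1 to 69.3). Fibroblast-like cells, the most numerous class, held 67.5% of the 9793 Il33 UMIs, mesothelial-like cells 12.6% and lymphatic endothelial-like cells 7.15%. In lymphatic endothelial-like cells the suffixes ran from 26.5 CPM through a median of 60.9 CPM to 220 CPM. Mesothelial-like cells ran from 54.2 CPM through 73.0 CPM to 100.1 CPM. The ranges of these groups overlapped, and lymphatic cells were above mesothelial cells in 4 of 8 suffixes.

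Il33 was 6.49-fold (4.39 to 10.0) higher in lymphatic than in blood endothelial-like cells, which had 12.2 CPM, and was higher in 8 of 8 suffixes. This rested largely on the 1 cluster described next, without which the ratio was 2.22 (1.47 to 3.49), in 7 of 8 suffixes. Macrophage-like cells, at 1.36 CPM, did not stand apart from the B-like cells used as background, at 1.27 CPM (ratio 1.07, 0.284 to 9.08). The share of cells with an Il33 UMI was 52.9% in mesothelial-like cells, 29.1% in lymphatic endothelial-like cells and 0.712% in B-like cells, at medians of 13844, 8579 and 4683 UMIs per cell. With every cell thinned to 1000 UMIs the shares were 7.05%, 4.40% and 0.357%.

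Within lymphatic endothelium Il33 was concentrated in 1 cluster of 98 cells (cluster 32) whose leading genes included Vwf, the clotting carrier of endothelium, and Ackr4, a scavenger of Ccl21. It held 510 of the 700 lymphatic Il33 UMIs and reached 279 CPM (255 to 304), with a UMI in 80.6% of its cells. Its suffixes ran from 88.5 CPM through 237 CPM to 526 CPM. This cluster was placed with lymphatic endothelium by its Prox1 share, since all 8 blood endothelial markers, summing to 7019 CPM, and 5 of 7 lymphatic markers, summing to 2591 CPM, were found in at least 10% of its cells. These sums over different genes do not tell which identity is the stronger. The other 5 lymphatic clusters together had 27.1 CPM, so that the ratio was 10.3-fold (8.69 to 12.2), with the same order in 8 of 8 suffixes. Among these 5, levels ran from 10.7 CPM in cluster 27, led by Egfl7 and Clca3a1, to 62.3 CPM in cluster 46, led by Ptprt and Lypd6. Cells of the Ccl21a-led cluster 39, which carry the markers of initial lymphatics, had 38.2 CPM (26.4 to 53.4). The Vwf-led cluster held 24 cells in suffix 4, the one with the highest lymphatic Il33 level, and 5 to 19 in the others, and the part of this in the spread between suffixes was not tested. Without suffix 4 the lymphatic level was 60.1 CPM, and it was 41.7 CPM when single cells were gated by markers. With clusters named by fold it was 38.2 CPM, the same level as cluster 39 alone. That value therefore does not describe the same set of cells, and the lymphatic name of the other clusters depended on the naming rule.

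Fibroblasts differed by subset. Those marked by Col8a1 and Adamts16 had the highest Il33 level, 121 CPM (117 to 126), and suffix values from 72.7 CPM through 112 CPM to 180 CPM. Pi16 and Dpp4 fibroblasts, an adventitial kind, had 69.9 CPM, and those marked by Tcf21, Asb4 and Rspo3 had 64.4 CPM. The order ended with Tspan11 and Pax1 fibroblasts at 41.7 CPM and Ngfr and Fgf10 fibroblasts at 28.3 CPM. Neighbours in this order overlapped in their suffix ranges, while Col8a1 and Adamts16 cells were above Tspan11 and Pax1 cells in 8 of 8 suffixes (2.91-fold, 2.61 to 3.25). The lower end of the order moved with processing, since finer clusters gave 27.4 CPM in Tspan11 and Pax1 and 48.2 CPM in Ngfr and Fgf10 fibroblasts, and the latter had 18.1 CPM with doublets kept. Gating single cells gave 15.1 CPM there, 29.1 CPM in the Tcf21 subset and 70.8 CPM in 16 cells of the Col8a1 subset. Counting intervals of the lymphatic, mesothelial and Pi16 groups overlapped with their neighbours, and that of the Col8a1 group stood apart.

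The Col8a1 subset was itself uneven. Its cluster led by Adamts16 and Col8a1 (cluster 6, 1085 cells) had 173 CPM, and its cluster led by Angptl7 (cluster 14, 491 cells) had 23.7 CPM, a 7.29-fold difference (6.26 to 8.53) with the same order in 8 of 8 suffixes. Within the Pi16 subset, cluster 9 had 99.7 CPM and cluster 3 had 50.2 CPM, but the order held in 5 of 8 suffixes. Cluster 9 held 152 to 229 cells in each of suffixes 1 to 4 and 10 to 40 in suffixes 5 to 8, and cluster 3 held 4 to 10 and 252 to 506. That difference therefore cannot be told apart from the one between the sets of suffixes. Between the sets, Il33 in the Col8a1 subset was 163 CPM in suffixes 1 to 4 and 89.4 CPM in suffixes 5 to 8, and in lymphatic endothelial-like cells it was 124 CPM and 52.1 CPM. Mesothelial-like cells were closer, at 79.7 CPM and 72.2 CPM, and Ngfr and Fgf10 fibroblasts went the other way, at 23.5 CPM and 34.3 CPM.

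The highest Il33 level of any cluster, 518 CPM (483 to 556), was in cluster 21, 194 cells that stayed unnamed. It was led by Sfrp5, Lypd2, Tenm2 and Hcn4, and 72.2% of its cells had an Il33 UMI. The suffixes ran from 244 CPM through 510 CPM to 736 CPM. All 7 fibroblast markers and 3 of 7 mesothelial markers were found in at least 10% of its cells. Its level was 3.00-fold that of cluster 6, in 8 of 8 suffixes, and 1.86-fold that of the Vwf-led lymphatic cluster, in 7 of 8. Tslp was low there, at 3.99 CPM.

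**Figure D2:**
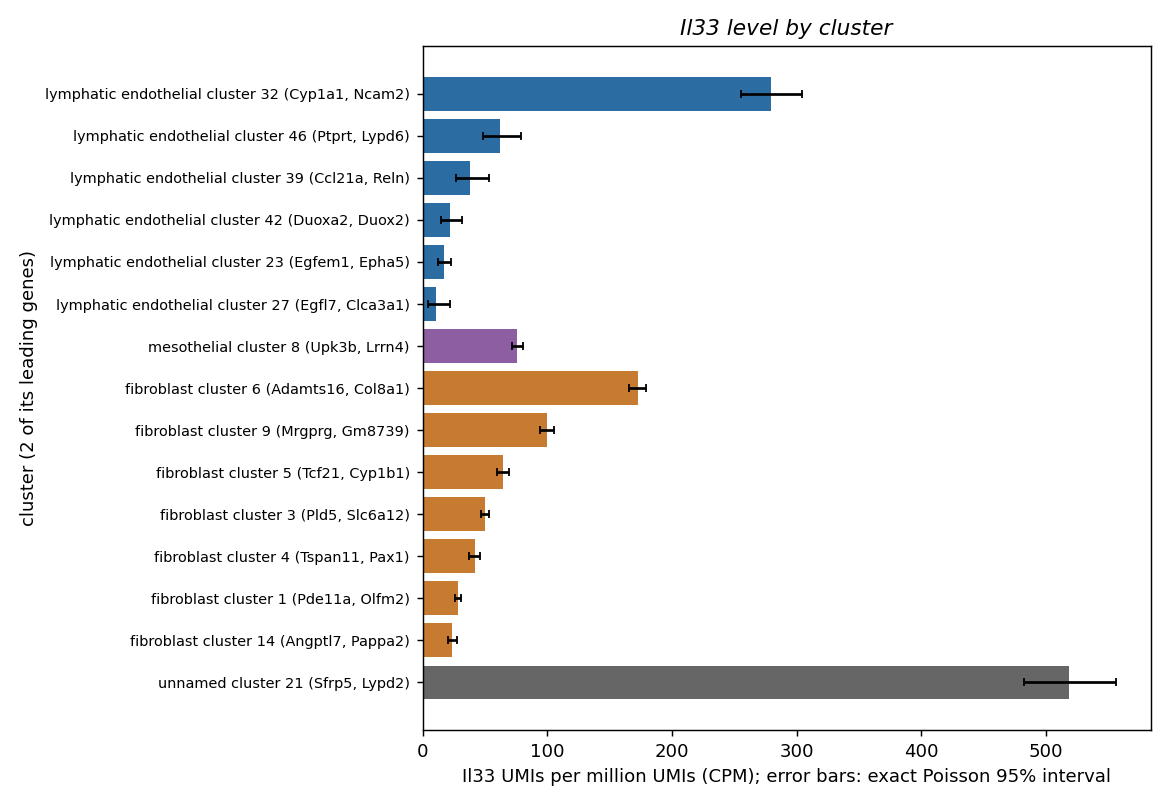
Il33 level (CPM, horizontal axis, linear) with exact Poisson 95% intervals in each lymphatic endothelial (blue), mesothelial (purple) and fibroblast (orange) cluster and in unnamed cluster 21 (grey). The 279 CPM of lymphatic cluster 32 and the 173 CPM of fibroblast cluster 6 stand above the other clusters of their classes, and cluster 21 stands at 518 CPM.

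Tslp followed another pattern, with macrophages as its highest class. Macrophage-like cells had 73.4 CPM (70.9 to 76.1) and the 8 suffixes ran from 48.4 CPM through 79.2 CPM to 89.6 CPM. Fibroblast-like cells had 32.4 CPM, from 23.9 CPM through 30.8 CPM to 47.0 CPM, and macrophages were higher in 8 of 8 suffixes (2.27-fold, 2.16 to 2.39). The classes split the 6788 Tslp UMIs almost evenly, with 46.6% in fibroblast-like and 46.1% in macrophage-like cells. At a median of 7042 UMIs, 34.9% of macrophage-like cells had a Tslp UMI, against 0 of 281 B-like cells, which at 3 counts allows a share of cells with a UMI of up to 1.07%. Against that floor of 3 counts, macrophage-like cells were 38.6-fold higher, and the exact lower limit of the ratio was 31.4.

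Among macrophages the Cd209 group led. Cluster 0, led by the lectins Cd209b and Cd209d, had 90.6 CPM (86.8 to 94.6) and a UMI in 41.1% of cells. Cluster 2, led by Ccl12, Fcna and Spic, had 69.9 CPM, and cluster 10, led by Mucl1, Ccl4 and Mmp13, had 21.9 CPM. Cluster 0 was above cluster 10 in 8 of 8 suffixes (4.14-fold, 3.51 to 4.92) and above cluster 2 in 8 of 8 (1.30-fold, 1.20 to 1.40). Dendritic-like cells, the other large myeloid class, had 2.54 CPM.

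Fibroblast subsets ranked otherwise for Tslp than for Il33. Pi16 and Dpp4 fibroblasts were highest at 47.9 CPM (45.5 to 50.4), with suffixes from 35.1 CPM through 47.9 CPM to 57.7 CPM. They were above Ngfr and Fgf10 fibroblasts, at 30.5 CPM, in 8 of 8 suffixes (1.57-fold, 1.44 to 1.72). The Col8a1 subset, highest for Il33, had 21.9 CPM, and Tspan11 and Pax1 fibroblasts had 12.5 CPM. In the Pi16 subset 34.6% of cells with an Il33 UMI also had a Tslp UMI, against 39.5% of cells without, so the alarmins were not found together more often there. In the other 4 subsets the share was higher with Il33 than without, as in Ngfr and Fgf10 fibroblasts with 29.1% against 21.1%. Lymphatic endothelial-like and mesothelial-like cells had little Tslp, 4.19 CPM and 1.97 CPM. Mast-like cells showed 10 Tslp UMIs (23.4 CPM, 11.2 to 43.0), all in suffixes 5 to 8.

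Receivers of interleukin-33 were few in kind. Il1rl1 reached 1243 CPM (1194 to 1293) in innate lymphoid-like cells and a UMI in 95.3% of them. The suffixes ran from 1041 CPM through 1202 CPM to 1502 CPM. Mast-like cells followed with 907 CPM (819 to 1002), from 495 CPM through 942 CPM to 1079.5 CPM. The ranges met at their ends, and innate lymphoid-like cells were the higher in 7 of 8 suffixes (1.37-fold, 1.23 to 1.53). They held 48.2% of all Il1rl1 UMIs and mast-like cells 7.65%. B-like cells, used as background, had 7.61 CPM and a UMI in 9 of 281 cells, and 5 cells held 66.7% of these UMIs.

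Below these, Il1rl1 was found at lower levels in named subsets of other immune cells. Dendritic-like cells had 36.1 CPM, and within them cluster 12, led by Ccl22 and Ccl17, had 60.9 CPM against 3.90 CPM in the Xcr1-bearing cluster 17 (15.6-fold, 9.47 to 27.7, in 8 of 8 suffixes). The same dendritic cluster 12 carried Il7r, at 69.0 CPM against 1.71 CPM in cluster 17 (40.4-fold, 19.4 to 101, in 8 of 8 suffixes). Macrophage-like cells, at 11.2 CPM, were above B-like cells in 6 of 8 suffixes with a ratio interval that includes 1 (1.48, 0.837 to 2.88). Lymphatic endothelial-like cells had 2.38 CPM of this receptor gene, below the B-like level, which rested on few cells. Smooth muscle-like cells had 1.93 CPM of it and NK-like cells 0 CPM. The 5 cells with most Il1rl1 held 49.5% of its UMIs in the Pi16 and Dpp4 subset, whose highest suffix, 7, had 44.5 CPM against a median of 1.30 CPM.

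Il7r, needed for both interleukin-7 and Tslp signals, was highest in T-like cells. They had 848 CPM (802 to 897), with suffixes from 612 CPM through 769 CPM to 1124 CPM. Innate lymphoid-like cells had 696 CPM (660 to 734), from 578 CPM through 671 CPM to 917 CPM. The suffix ranges overlapped, and T-like cells were the higher in 5 of 8. Of the T-like clusters, the one led by Cd163l1, Il23r and Trdc, genes of gamma delta T cells, had 1308 CPM and an Il7r UMI in every one of its 63 cells. NK-like cells had 292 CPM, with suffixes from 57.3 CPM through 125 CPM to 628 CPM, and they had 194 CPM without suffix 2 and 81.1 CPM when gated by markers. Mast-like cells had 4 Il7r UMIs (9.36 CPM), whereas smooth muscle-like cells, the background for this gene, had 0.886 CPM.

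Interleukin-7, the other ligand read through this chain, was also a stromal transcript. Among the classes Il7 was highest on lymphatic endothelium, at 63.6 CPM (58.4 to 69.0), followed by mesothelium at 24.4 CPM. The Ccl21a-led cluster 39 had 190 CPM, 3.84-fold (3.19 to 4.61) the level of the other lymphatic clusters, in 7 of 8 suffixes. Il33 and Il7 were thus highest in different lymphatic clusters, while 60.0% of lymphatic cells with an Il33 UMI had an Il7 UMI against 36.5% of those without. Cells with an Il33 UMI were deeper, at a median of 16711 UMIs against 7010, and the part of depth in this was not tested.

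**Figure D3:**
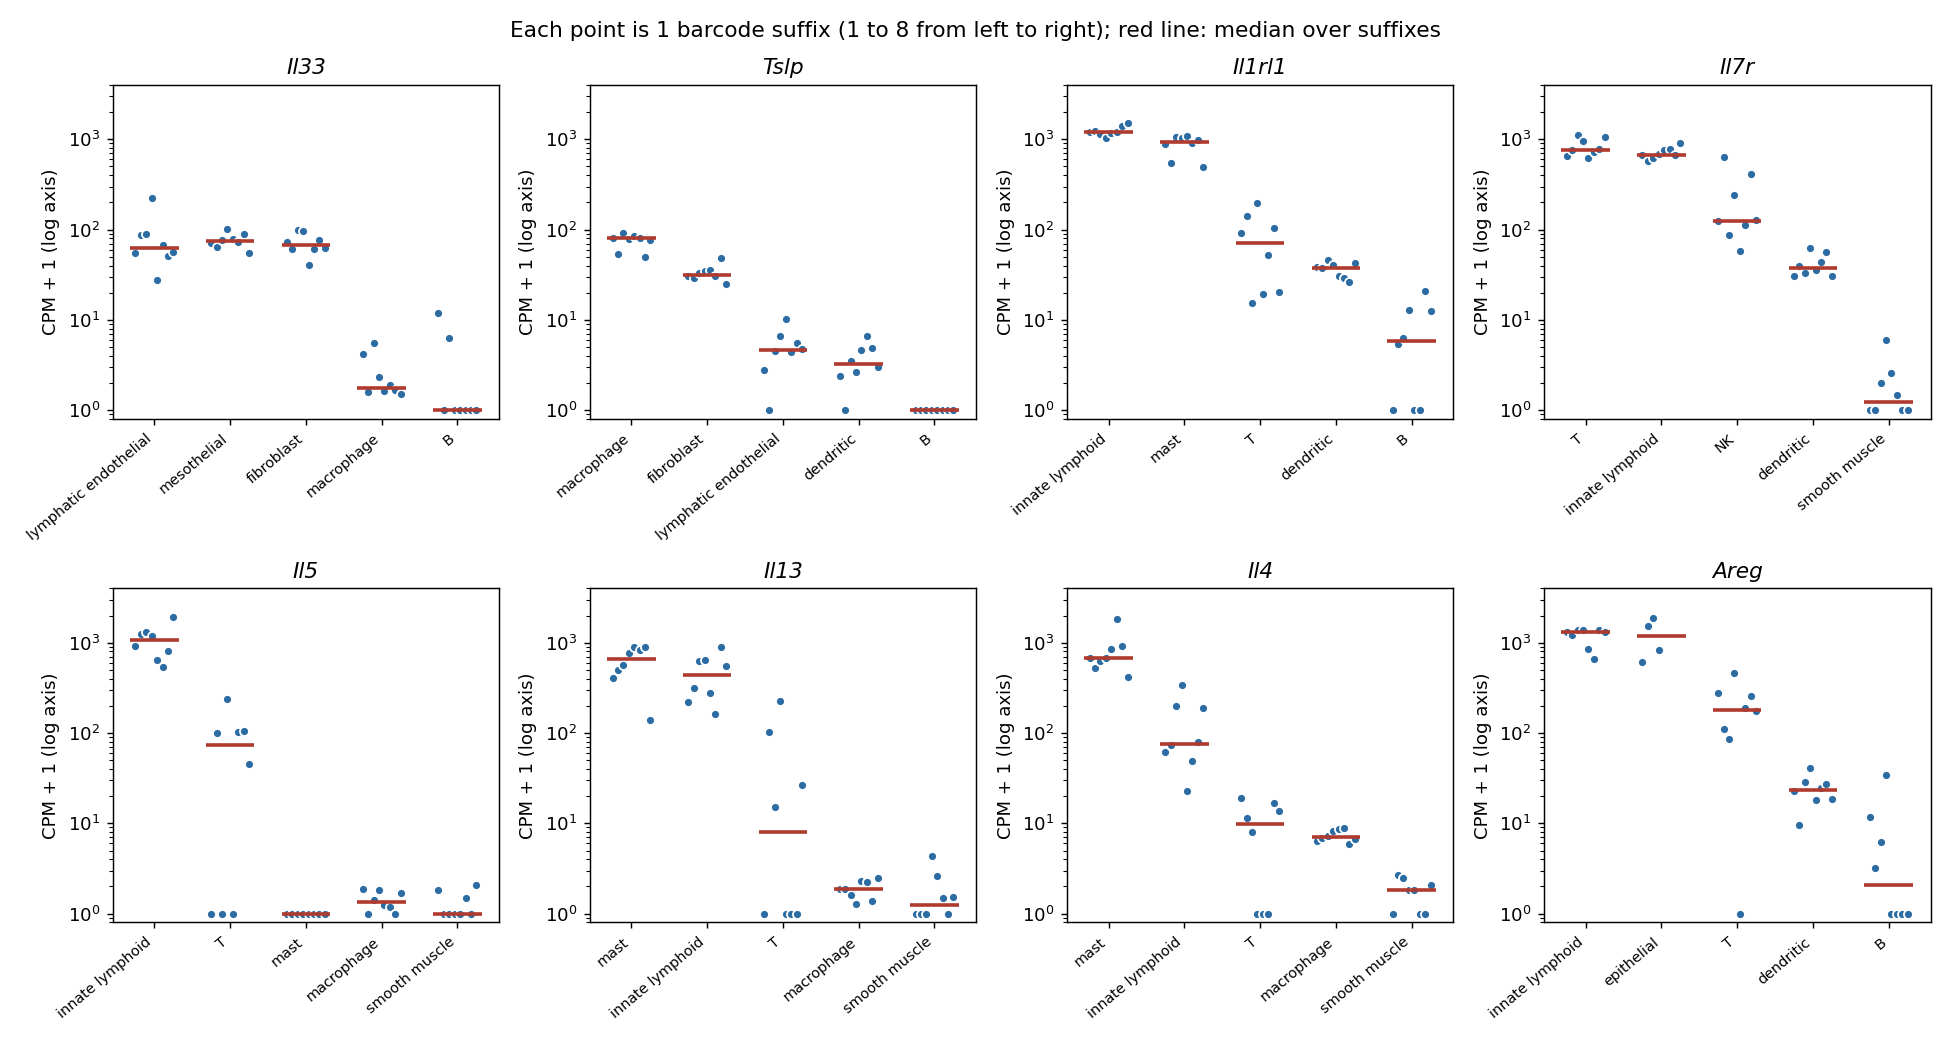
Level of each gene (CPM + 1, log axis) in 5 classes, with 1 point per barcode suffix (suffix 1 at the left to suffix 8 at the right) and a red line at their median. Suffixes of innate lymphoid-like cells lie close together for Il1rl1 and Il7r and spread widely for Il13 and Il4, and epithelial-like cells have only 4 points because they were found in suffixes 1 to 4.

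Type 2 cytokine genes were read out in innate lymphoid and mast cells with different pairings. Innate lymphoid-like cells carried Il5 at 1148 CPM (1101 to 1197), 81.1% of the 2782 Il5 UMIs. Their suffixes ran from 542 CPM through 1059 CPM to 1943 CPM. In mast-like cells 0 of 255 had an Il5 UMI, which at 3 counts allows a share of cells with a UMI of up to 1.18% and at a median of 1229 UMIs per cell does not bound the cells that express it, and smooth muscle-like cells had 0.322 CPM. An Il5 UMI was found in 61.9% of innate lymphoid-like cells at a median of 5242 UMIs, and in 0.198% of smooth muscle-like cells at 8106 UMIs. T-like cells had 96.9 CPM, as described below.

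Il13 was found in both classes. Mast-like cells had 638 CPM (565 to 719), with suffixes from 137 CPM through 664 CPM to 902 CPM. Innate lymphoid-like cells had 464 CPM (435 to 495), with suffixes from 160 CPM through 437 CPM to 904 CPM. The ranges overlapped almost whole and mast-like cells were the higher in 5 of 8 suffixes. Since mast-like cells were few and shallow, they held 15.5% of Il13 UMIs and innate lymphoid-like cells 51.6%.

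Il4 had its highest level in mast-like cells, which held 32.9% of its 1024 UMIs, while macrophage-like cells held 26.7% and innate lymphoid-like cells 25.4%. Mast-like cells had 788 CPM (706 to 877), from 412 CPM through 675 CPM to 1821 CPM over suffixes. Innate lymphoid-like cells had 132 CPM (117 to 149), from 21.6 CPM through 75.0 CPM to 336 CPM. Suffix by suffix, mast-like cells were the higher in 8 of 8 (5.96-fold, 5.05 to 7.03), and the ranges did not overlap. Of the innate lymphoid Il4 UMIs, 62.7% came from 5 cells, the highest with 76. For each Il13 UMI there were 1.23 Il4 UMIs (1.05 to 1.45) in mast-like cells and 0.285 (0.247 to 0.328) in innate lymphoid-like cells.

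Macrophage-like cells held a low but regular Il4 signal. They had 6.41 CPM (5.67 to 7.22) in 4.27% of cells, against 0.725 CPM and 0.528% in smooth muscle-like cells, and the ratio was 8.84 (4.59 to 19.5) with the same order in 8 of 8 suffixes. The suffixes ran from 4.83 CPM through 6.01 CPM to 7.96 CPM. It was highest in the Cd209b-led cluster 0, at 9.20 CPM, and 1.60 CPM in cluster 10 (5.73-fold, 3.14 to 11.7, in 7 of 8 suffixes). Macrophage-like cells had 7.00 Il4 UMIs (4.99 to 10.1) for each Il13 UMI, unlike the ratios of mast-like and innate lymphoid-like cells. Their Il13 level was 0.915 CPM, and the ratio to smooth muscle-like cells was 1.42 (0.655 to 3.52). After thinning to 1000 UMIs, 0.736% of macrophage-like cells had an Il4 UMI.

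Single cells often carried more than 1 of these genes. Of 362 innate lymphoid-like cells, 155 had a UMI of 1 of Il5, Il13 and Il4, 96 had UMIs of 2, 19 of all 3 and 92 of none. Cells with Il5 had an Il13 UMI in 37.9% of cases, and cells without Il5 in 20.3%, at medians of 5482 and 4910 UMIs. For Il4 the shares were 18.8% and 18.1%, so Il4 was found as often with Il5 as without. In mast-like cells 57.7% of cells with Il4 had Il13, against 36.3% of cells without, but the former were deeper, at a median of 1420 against 1129 UMIs. The receptor gene Il1rl1 and Il7r were found together in 88.7% of innate lymphoid-like cells. The product of their shares, 95.3% and 92.5%, was close to this at 88.2%.

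**Figure D4:**
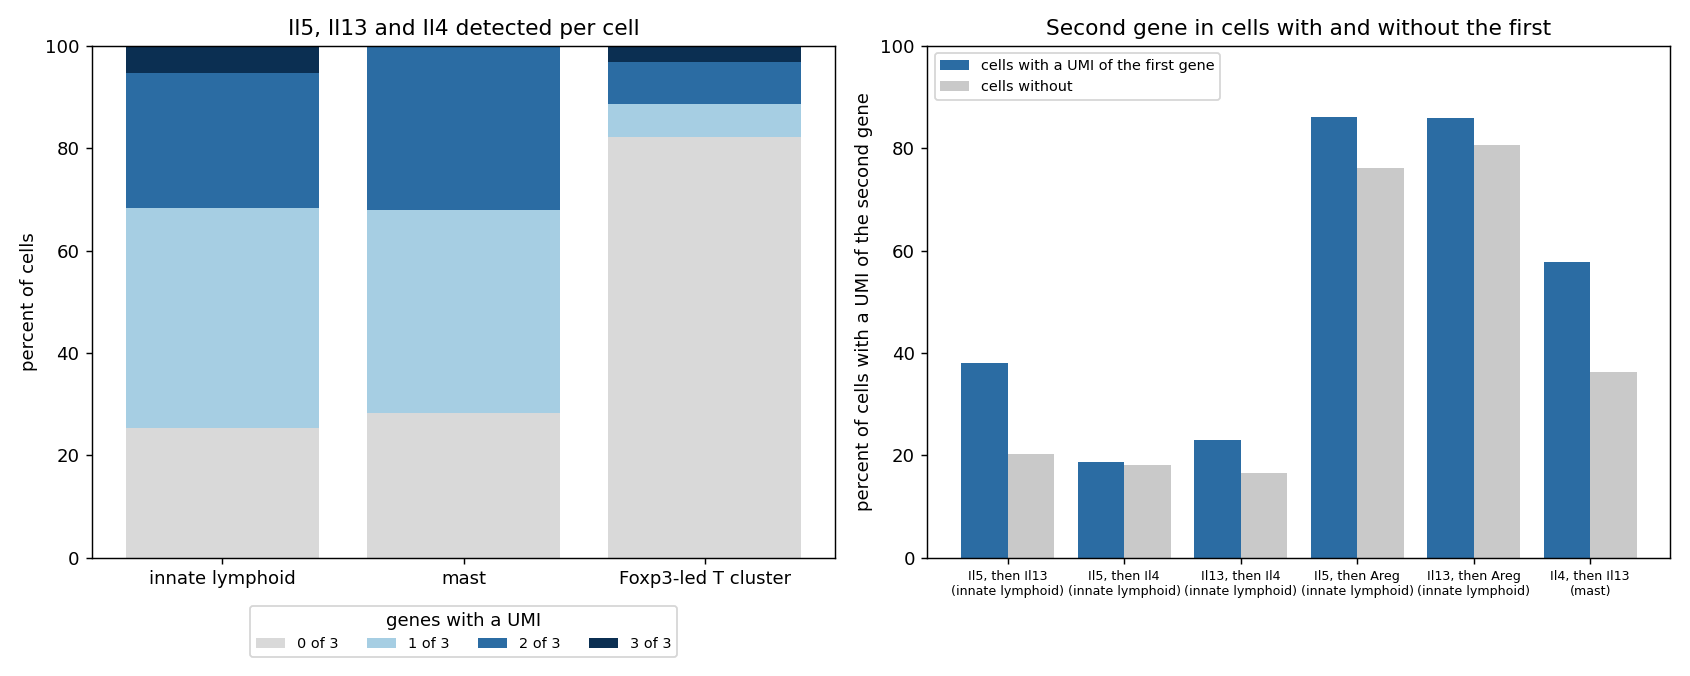
Left, percent of cells with UMIs of 0 to 3 of the genes Il5, Il13 and Il4 in innate lymphoid-like cells, mast-like cells and the Foxp3-led T-like cluster. Right, percent of cells with a UMI of the second gene among cells with (blue) and without (grey) a UMI of the first, where, of the 6 pairs drawn, Il5 with Il13 (37.9% against 20.3%) and Il4 with Il13 in mast-like cells (57.7% against 36.3%) differ most.

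Innate lymphoid-like cells fell into 2 clusters that shared most of this program. Cluster 18 (261 cells, with Dach2 and Igsf5 among its leading genes) had 1321 CPM of Il1rl1 and cluster 30 (101 cells, led by Calca, Ccl1 and Csf2) had 968 CPM, the former higher in 8 of 8 suffixes (1.36-fold, 1.23 to 1.52). Il5 was 1185 CPM and 1016 CPM, Il13 was 470 CPM and 444 CPM, and Areg was 1246 CPM and 1243 CPM. For Il4 the level was 151 CPM in cluster 18 and 64.8 CPM in cluster 30, in that order in 5 of 8 suffixes.

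Areg was the most widely placed of the products. Innate lymphoid-like cells had 1245 CPM (1196 to 1295) and a UMI in 82.3% of cells, with suffixes from 667 CPM through 1311 CPM to 1400.5 CPM. Epithelial-like cells, found in suffixes 1 to 4 only, had 1158 CPM and held 62.6% of all Areg UMIs. Nearly all of it lay in cluster 24, led by Wfdc2, at 1699 CPM, against 15.3 CPM in the Krt17-led cluster 22 (111-fold, 80.3 to 157, in 4 of 4 suffixes). Unnamed cluster 11, led by the myeloid genes Lyz1 and Ear2, had 175 CPM, 28.8-fold (25.1 to 33.1) the macrophage-like level, in 8 of 8 suffixes. In mast-like cells 0 of 255 had an Areg UMI, which allows, with the same limit, up to 1.18% of cells with a UMI. B-like cells had 10.8 CPM, with 94.1% of these UMIs in 5 cells.

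T-like cells owed most of their Il1rl1, Il5, Il13 and Areg to 1 small cluster. Cluster 43 held 62 cells, was led by Tnfrsf4, Ctla4 and Foxp3, genes of regulatory T cells, and had 1 to 22 cells per suffix, 22 in suffix 2 and 18 in suffix 4. Il1rl1 was 442 CPM there against 8.86 CPM in the other T-like clusters, and Areg was 866 CPM against 39.9 CPM, both higher in 6 of 8 suffixes. Il5 was 383 CPM against 11.5 CPM, higher in 3 of 8 suffixes, and Il13 was 332 CPM against 7 UMIs in all the others, higher in 2 of 8. All 9 innate lymphoid markers were also found in at least 10% of its cells, with a summed level of 3943 CPM beside 2961 CPM for the T list, and the part of such cells in its values was not tested.

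Cell by cell, Il5 and Il13 in that cluster were found apart from Foxp3. Of its 62 cells, 22 had a Foxp3 UMI, of which 14 had Il1rl1, 12 had Areg and none had Il5 or Il13. The 10 cells with Il5 and the 7 with Il13 all lacked a Foxp3 UMI, and 6 cells had both cytokines. Il1rl1 was found in 63.6% of cells with Foxp3 and 40% of cells without, and Areg in 54.5% and 37.5%. Cells with Foxp3 had a median of 3651 UMIs and cells without it 4630, and 5 cells held 85.3% of the cluster's Il5 UMIs. Without suffix 4 the T-like level of Il5 fell from 96.9 CPM to 56.2 CPM and that of Il13 from 81.2 CPM to 39.5 CPM. With cells gated singly by markers these levels were 18.0 CPM and 11.7 CPM, and Areg fell from 230 CPM to 99.7 CPM.

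Set against all other cells, 6 of the 8 genes were at least 4-fold higher and at or above 10 CPM in innate lymphoid-like cells, where 3.39% of 16281 genes passed the same rule. These were Il1rl1, Il5, Il13, Il4, Areg and Il7r. Mast-like cells passed for 3, namely Il1rl1, Il13 and Il4, at a background of 2.21%. T-like cells passed for 4, namely Il1rl1, Il5, Il13 and Il7r, at 3.96%, and for 1 when cells were gated singly by markers or when no barcode was filtered. None passed in lymphatic endothelial-like cells (3.57%), mesothelial-like cells (2.89%) or macrophage-like cells (3.92%), and none in the fibroblast subsets, where the background was 0.897% (Pi16 and Dpp4), 0.534% (Tcf21, Asb4 and Rspo3), 0.51% (Tspan11 and Pax1), 0.479% (Col8a1 and Adamts16) and 0.27% (Ngfr and Fgf10). Il33 and Tslp therefore passed in none of these groups, Tslp in macrophage-like cells being 3.51-fold and Il33 in the Col8a1 subset 3.37-fold the rest. Without suffix 7, or under the stricter cell filter, 1 of the 8 genes passed in macrophage-like cells.

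Partners of these genes were taken from lists of the pathway and counted at 10 CPM or more. Of 16281 genes, 43.1% reached that level in innate lymphoid-like cells, 48.2% in mast-like, 48.9% in T-like, 50.9% in lymphatic endothelial-like and 48.3% in macrophage-like cells. The share was 47.6% in B-like, 47.4% in NK-like, 45.9% in dendritic-like, 57.4% in epithelial-like and 51.3% in blood endothelial-like cells. A count over a list of 7 or 8 genes therefore singles out no class. Of the interleukin-33 receptor partners and adaptors, 7 of 7 reached it in innate lymphoid-like cells and in lymphatic endothelial-like cells and 5 of 7 in mast-like cells, but also 7 of 7 in T-like, NK-like, dendritic-like, epithelial-like and blood endothelial-like cells. Il1rap, the chain that pairs with ST2, was 43.3 CPM in innate lymphoid-like and 70.2 CPM in mast-like cells, and the kinase Irak2 was 419 CPM and 58.5 CPM. Of the Tslp and interleukin-7 list, 6 of 7 reached it in innate lymphoid-like, T-like and lymphatic endothelial-like cells, as in B-like, NK-like and blood endothelial-like cells. Crlf2, the Tslp receptor chain, was 97.0 CPM in macrophage-like cells, themselves the class highest in Tslp, 42.2 CPM in innate lymphoid-like and 51.5 CPM in mast-like cells. Il2rg, the shared chain for interleukin-7, was 551 CPM in innate lymphoid-like cells.

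Il25, the remaining alarmin, had 2 UMIs in fibroblast-like cells, 1 in epithelial-like cells and none in the other named classes. Its receptor chain Il17rb was 19.9 CPM in innate lymphoid-like cells, with a UMI in 34 of 362. All 34 also had Il1rl1, as did 94.8% of the cells without Il17rb. Of 8 receptor genes for Il4, Il13, Il5 and Il9, 6 reached 10 CPM in mast-like cells, where 48.2% of all genes did. Among them Csf2rb was 634 CPM and Il5ra 30.4 CPM, while the highest Il5ra level of the classes was 93.8 CPM in B-like cells. The count was 3 in lymphatic endothelial-like cells (50.9% of all genes). It was 5 in B-like (47.6%), dendritic-like (45.9%), blood endothelial-like (51.3%), pericyte-like (55.5%) and neutrophil-like cells (33.6%). Neutrophil-like cells numbered 21, and a count of 0 had an upper limit of 82.2 CPM there, so very few UMIs are enough to pass 10 CPM. Il4ra was 77.9 CPM and Il13ra1 144 CPM in the lymphatic cells, and Il4ra was 175 CPM in Pi16 and Dpp4 fibroblasts. Of 8 other cytokines of type 2 cells, 5 reached 10 CPM in innate lymphoid-like cells and 5 in T-like cells. Of all genes, 43.1% and 48.9% did so in these classes. In innate lymphoid-like cells Calca, which encodes the neuropeptide CGRP, was at 846 CPM and Csf2 at 625 CPM.

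Genes on the receiving side of these products were spread over many classes. Egfr, the Areg receptor, was 1018 CPM in fibroblast-like cells and 227 CPM in macrophage-like cells, higher in the former in 8 of 8 suffixes (4.49-fold, 4.40 to 4.59). It was 5.09 CPM in innate lymphoid-like cells. Of 8 genes known to respond to Il4 and Il13, 5 reached 10 CPM in macrophage-like, mast-like, epithelial-like and Schwann-like cells. The count was 6 in dendritic-like and 8 in proliferating-like cells. Of all genes, 45.9% reached that level in dendritic-like, 56.1% in proliferating-like, 57.4% in epithelial-like and 57.0% in Schwann-like cells. In macrophage-like cells Retnla was at 7315 CPM and Ccl24 at 587 CPM. The count was 4 in each fibroblast subset. The share of all genes there ran from 49.98% (Tspan11 and Pax1) to 52.7% (Tcf21, Asb4 and Rspo3), so this count singles out no subset. The eosinophil attractant Ccl11 reached 2304 CPM in Tcf21, Asb4 and Rspo3 fibroblasts. The T cell attractants Ccl17 and Ccl22 reached 191 CPM and 176 CPM among dendritic-like cells, the class whose cluster 12 carried Il1rl1.

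Genes with the most similar profile were named by Pearson correlation of log2(CPM + 1) over 48 clusters among 14847 genes, as a description with no test, since clusters share libraries and depth. Il33 was closest to the sulfatase Sulf1 (r = 0.854), Vldlr (0.826) and the chemokine scavenger Ackr3 (0.798). Tslp was closest to Snx24 (0.871), Fcgrt (0.837) and Igf1 (0.827). For Il5 the nearest were Rln3 (0.898), Cntn1 (0.886) and Fam183b (0.883), and for Il13 the chemokine Ccl1 (0.897) and Il4 (0.863). Il1rl1 had Furin (0.802), Ccl1 (0.800) and Il13 (0.787) as its nearest, and Areg had Arg1 (0.843). Il7r was closest to Il18rap (0.906), Skap1 (0.899) and Trbc2 (0.896).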

How the data were processed

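Raw UMI counts per gene and barcode were deposited by the authors for the cells of all mice together. Per the file headers they come from Cell Ranger 7.1.0, and the submitters' processing notes also name Seurat 4.3.0.1 and the build mm10. The annotation, strand and intron settings are not given in the sources used here.

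Of 24046 barcodes, 380 had fewer than 500 UMIs, fewer than 300 genes or at least 15% mitochondrial UMIs and were dropped. Doublets were scored within suffixes 1 to 4 and 5 to 8, since 0 barcodes were shared within and 44 across these sets, and 508 (2.15%) above a score of 0.25 were removed. Of 300 doublets made from deposited cells, 29.7% were called, so others remain. Counts scaled to 10000 per cell gave 2000 variable genes without the 8 genes and the list genes, 30 principal components, 15 neighbours and Leiden clusters at resolution 1.0 (leidenalg 0.10.2, NumPy 2.4.6, SciPy 1.17.1). Lymphoid and endothelial cells were clustered again. Clusters took the class with the highest mean standardised log2(CPM + 10) of its markers, and an endothelial cluster was called lymphatic where at least 80% of cells had Prox1. These naming rules, the doublet threshold and the cluster contrasts were chosen after the clusters were seen, and the genes and lists were chosen with earlier results of these data known.

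Named genes were all 8 in every class, list genes at 10 CPM or more, and the 5 most correlated genes. Ratios carry exact conditional binomial intervals and shares exact Clopper-Pearson intervals, where the limit for a count of 0 is 3 counts. A class was compared with all other cells by the ratio of (CPM + 1) over genes with at least 100 UMIs. Female and male mice were not compared, because the barcodes name neither.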

Additional observations from a re-analysis of the deposited data

How the results depend on the processing

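No paired analysis was possible because no label ties a barcode suffix to a mouse, and no test was made. Classes were compared within barcode suffixes by the number of suffixes with the same order. Of 182 levels under settings other than leaving out a suffix, 24 changed by more than 1.5 times, and of 200 with a suffix left out, 3 did. Gating single cells by markers gave Il33 levels of 29.1 CPM in Tcf21, Asb4 and Rspo3 fibroblasts and 70.8 CPM in the Col8a1 and Adamts16 subset (16 cells). It gave Tslp at 32.9 CPM in Pi16 and Dpp4 fibroblasts, Il1rl1 at 906 CPM in innate lymphoid-like and 35.9 CPM in T-like cells, and Il7r at 81.1 CPM in NK-like cells. At Leiden resolution 2.0, Il33 in Ngfr and Fgf10 fibroblasts was 48.2 CPM. With cells weighted equally, Il1rl1 in mast-like cells was 1157 CPM. Some alternatives were chosen after seeing the data. Without the Foxp3-led cluster, T-like levels were 8.86 CPM for Il1rl1, 11.5 CPM for Il5 and 39.9 CPM for Areg, and without the Angptl7-led cluster Il33 in the Col8a1 and Adamts16 subset was 173 CPM. Il33 in lymphatic endothelial-like cells was 27.1 CPM without the Vwf-led cluster and 41.7 CPM under the gate. With clusters named by fold it was 38.2 CPM, the same level as the Ccl21a-led cluster 39 alone. With no barcode filtered, Il5 in T-like cells was 19.9 CPM, and under the stricter cell filter 30.1 CPM.

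Thinning to 1000 UMIs per cell lowered these shares, with Il33 to 4.40% of lymphatic endothelial-like and 7.05% of mesothelial-like cells, Tslp to 7.18% of macrophage-like cells, Il1rl1 to 66.7% of innate lymphoid-like and 56.0% of mast-like cells, Il5 to 42.5%, Il13 to 20.3%, Areg to 49.7% and Il7r to 45.0% of innate lymphoid-like cells. In mast-like cells, of which 89 were too shallow, Il13 fell to 39.8% and Il4 to 47.6%, and in T-like cells Il7r fell to 43.2%. The number of the 8 genes past 4-fold in T-like cells was 1 with no barcode filtered and 1 under the gate. In macrophage-like cells it was 1 under the stricter filter and 1 at a fold of 2, and 0 to 1 when each suffix was left out in turn (1 without suffix 7), while T-like cells ranged from 3 to 5. In the Col8a1 and Adamts16 subset it was 1 at a fold of 2. The cause of these changes was not tested. Low depth limits what can be seen in mast-like cells, and values of single clusters rest on few cells per suffix.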

Other observations

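Some cells outside the named classes also carried these genes. In cluster 13, 553 shallow cells led by haemoglobin and skeletal muscle genes, Il13 stood at 91.8 CPM, but its 93 UMIs came from 3 cells, 1 of which held 91. In cluster 51, 26 dividing cells, Il13 was 213 CPM, Il5 146 CPM and Areg 305 CPM. In cluster 55, 12 unnamed cells with Il2 and Il23r among their leading genes, Il5 was 373 CPM and Areg 398 CPM. Among 1046 mesothelial-like cells Il5 was 4.75 CPM, and 5 cells held 89.6% of its 77 UMIs.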
